A study of Mus musculus with 5 samples.

Results

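The RNA of 10 genes that handle the contents of cytotoxic granules was followed in splenic natural killer (NK) cells of the mouse. The genes were chosen by symbol and include 4 serpins that inhibit granzymes or related proteases (Serpinb9, Serpinb9b, Serpinb6a and Serpinb6b). The others are 2 granule constituents (Srgn and Nkg7), 2 proteases (Ctsc and Ctsw) and 2 genes of granule release (Unc13d and Rab27a). Each symbol matched 1 of the 56691 gene IDs in the deposited table, and all 10 passed the filter on low counts, as did 30580 genes in all. The 3 libraries labelled Fli1 KO came from splenic NK cells in which the gene of the ETS transcription factor Fli1 had been targeted with CRISPR, and the 2 labelled NTC from the control arm of that editing. The series title places the study in proteostasis under nutrient stress and in NK cell persistence in solid tumours. The sources used here give no strain, age, culture condition, guide position or editing efficiency. Nor do the labels say whether libraries of a group came from separate animals, so each p-value reflects the spread between 5 libraries, which may be technical.

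NK cells kill by moving granules to the contact with a target cell and fusing them with the cell membrane. Perforin and granzymes are stored there on a proteoglycan scaffold, granzymes are trimmed to their active form by a cathepsin, and RAB GTPases with their effectors dock and prime the granules. Granzymes that leak into the killer cell's own cytosol are met by intracellular serpins of clade B, which bind a protease irreversibly and shield the cell from its own cargo. The mouse carries more copies of these serpin genes than the human, most of them in a cluster on chromosome 13.

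Libraries held 4718390 to 5643791 counts. Levels are given as CPM, the counts of a gene relative to the library total after scaling with edgeR's TMM factors, and a gene was called where the adjusted p of edgeR's quasi-likelihood test was under 0.05. The 3 Fli1 KO libraries had 390, 320 and 361 CPM of Fli1 itself, against 322 and 279 CPM in the NTC libraries (log2 fold change 0.25, SE 0.14, edgeR adjusted p = 0.641). The groups overlapped. Counts summed over all exons cannot show small edits, so directions rest on the labels. The summed level of 6 NK cell markers lay between 1392 and 1637 CPM in Fli1 KO and between 1423 and 1729 CPM in NTC. Of 27 markers of T cells, B cells, myeloid cells, mast cells and basophils, and erythroid cells and platelets, 1 exceeded 3 times the background density of counts, which was measured on 1453 olfactory and vomeronasal receptor genes. The 2 NTC libraries differed from each other more than any other pair of libraries did (chi-square per degree of freedom 10.6 between them, against 2.18 to 8.45 for the other 9 pairs). In bulk RNA, fewer cells of a kind and less RNA per cell cannot be told apart.

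The serpins are shown first by their promoters, because 3 of them are neighbours on chromosome 13 that were higher together in the Fli1 KO libraries. Each line gives 250 bases before to 50 after the RefSeq gene start, 5′ to 3′ on the plus strand of GRCm38 (chr13:32965011-32965310 for Serpinb6b, chr13:33004291-33004590 for Serpinb9 and chr13:33027164-33027463 for Serpinb9b). The Serpinb9 stretch lies wholly inside the gene as GENCODE places it (33003250 to 33017957). Its values below hold for the RefSeq start only. Capitals mark GGAA, the core bound by ETS factors, on either strand (TTCC where it lies on the other strand).
Serpinb6b: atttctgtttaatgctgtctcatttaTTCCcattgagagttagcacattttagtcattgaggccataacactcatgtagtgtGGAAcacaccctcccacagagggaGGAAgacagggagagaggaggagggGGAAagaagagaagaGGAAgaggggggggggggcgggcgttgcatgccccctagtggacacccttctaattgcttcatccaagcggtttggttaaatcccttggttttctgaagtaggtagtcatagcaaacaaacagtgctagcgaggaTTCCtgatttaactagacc
Serpinb9: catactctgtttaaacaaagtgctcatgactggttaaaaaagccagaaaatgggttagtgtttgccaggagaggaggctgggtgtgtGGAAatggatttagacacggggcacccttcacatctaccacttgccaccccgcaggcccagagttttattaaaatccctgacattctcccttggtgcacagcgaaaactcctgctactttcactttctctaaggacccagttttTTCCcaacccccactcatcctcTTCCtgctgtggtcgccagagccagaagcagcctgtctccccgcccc
Serpinb9b: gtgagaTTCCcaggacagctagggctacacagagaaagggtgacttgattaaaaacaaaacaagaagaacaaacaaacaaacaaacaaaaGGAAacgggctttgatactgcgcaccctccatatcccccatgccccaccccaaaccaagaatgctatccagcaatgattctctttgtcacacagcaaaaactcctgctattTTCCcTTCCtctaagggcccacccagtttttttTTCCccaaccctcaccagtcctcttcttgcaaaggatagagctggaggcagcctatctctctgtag
The core occurred 6 times in the Serpinb6b promoter, 3 times in that of Serpinb9 and 5 times in that of Serpinb9b. The 2 promoters of Serpinb6a, not printed here, held it 10 and 3 times, so its number did not follow the size of the difference. GGAA is a common string, present in 96.0% of 32851 RefSeq promoters with a median of 3. A longer form, CNGGAAGT, was found on either strand in 9.53% of promoters and in none of the 3 printed. Of the 8 genes of the set with a RefSeq promoter, Rab27a alone held it, in 1 of its 2 promoters. Promoters of Serpinb9 and Serpinb9b were identical over 57.4% of aligned positions, against 41.6 to 43.0% for either of them with Serpinb6b. None of this says where FLI1 binds in NK cells.

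All 4 serpins were higher in each of the 3 Fli1 KO libraries than in both NTC libraries, and 2 of them, Serpinb9b and Serpinb6b, passed the test. Such upward separation was found in 11.9% of all tested genes and in 26.3% of tested genes over 3 times background. Serpinb9b had the largest difference of the 10 genes, followed by Serpinb9, Serpinb6b and Serpinb6a. None of the 6 other genes was called. The 2 calls among 10 genes, both higher, compare with 0.458% of all tested genes called higher, 0.0883% called lower and 0.546% called in either direction. Among tested genes over 3 times background, as all 10 were, 1.71% were called higher. The 10 genes were chosen with earlier results of these data known, so these shares are a description and not a test.

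**Figure D1:**
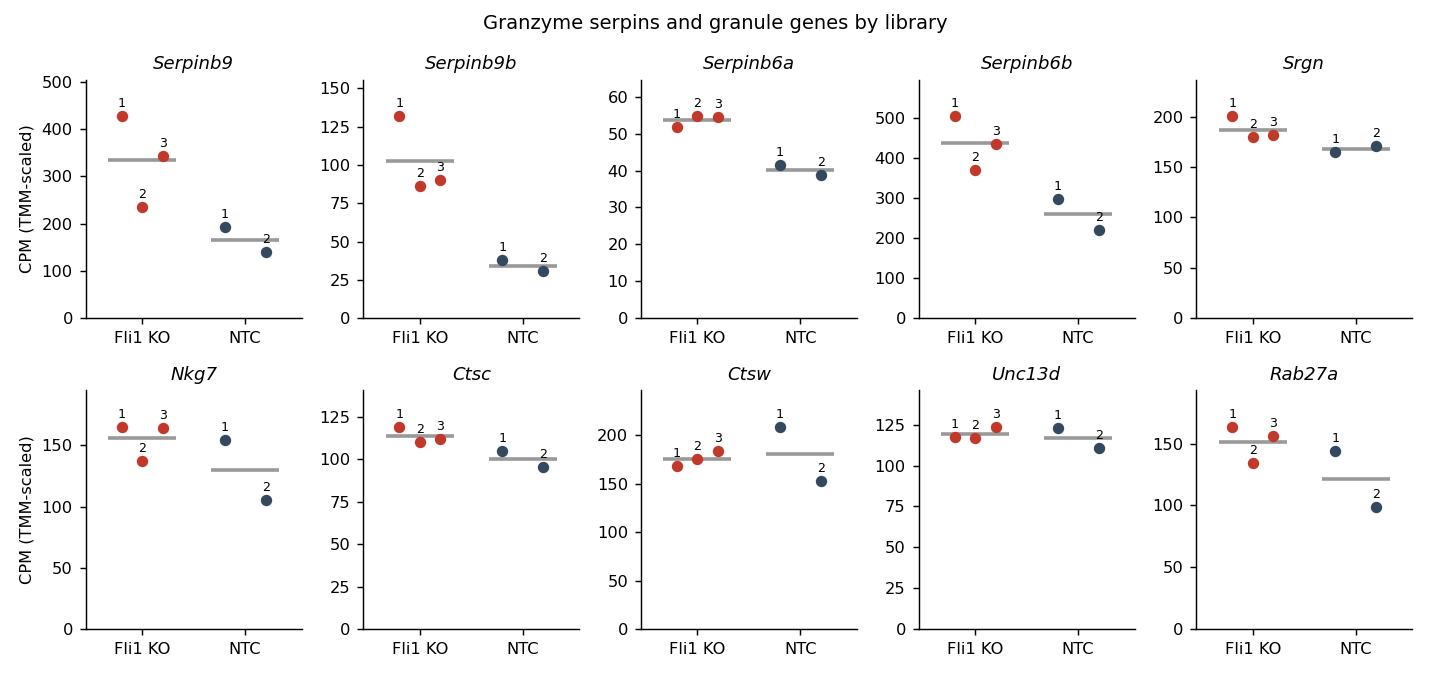
Level of each of the 10 genes in CPM (y axis, from 0) in the 3 Fli1 KO and 2 NTC libraries. Points are libraries with their replicate number and grey lines are group means. In the 4 serpin panels every Fli1 KO library lies above both NTC libraries.

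Serpinb9b (ENSMUSG00000021403, GRCm38 chromosome 13, 33027416 to 33041884, plus strand) encodes a mouse serpin that inhibits granzyme M. It had 132, 86.1 and 90.5 CPM in the Fli1 KO libraries, against 37.8 and 30.9 CPM in the NTC libraries. The lowest Fli1 KO library was still 2.28-fold above the higher NTC library, the widest gap among the 10 genes. Group means were 103 ± 25.3 CPM (SD, n = 3) in Fli1 KO and 34.4 ± 4.86 CPM (SD, n = 2) in NTC, a 2.99-fold difference (log2 fold change 1.58, SE 0.18, edgeR adjusted p = 3.91e-05). Serpinb9b was called under each of the 14 alternative settings, with log2 fold changes of 1.37 to 1.75. With a library left out, the share of tested genes called higher ran from 0.154% (without Fli1 KO 1) to 2.14% (without NTC 1).

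Serpinb9 (ENSMUSG00000045827, chromosome 13, 33003250 to 33017957, plus strand) encodes the inhibitor of granzyme B known in the mouse as SPI6. Its level was 427, 236 and 344 CPM in the Fli1 KO libraries, against 193 and 139 CPM in the NTC libraries. The groups did not overlap, but Fli1 KO libraries differed among themselves by as much as 1.81-fold. The means were 336 ± 96.0 CPM (SD, n = 3) in Fli1 KO and 166 ± 37.8 CPM (SD, n = 2) in NTC, and the 2.02-fold difference was not called (log2 fold change 1.01, 95% interval 0.49 to 1.53, edgeR adjusted p = 0.139). DESeq2 (adjusted p = 0.00201), which called 1.26% of its tested genes higher, and limma-voom (adjusted p = 0.0306), which called 0.474% higher, did call it. So did edgeR without Fli1 KO 2 (log2 fold change 1.23, adjusted p = 9.47e-04), where 0.748% of tested genes were called higher. In all, Serpinb9 was called under 5 of the 14 alternatives. EdgeR did not call it without Fli1 KO 1 (0.81, adjusted p = 0.260) or Fli1 KO 3 (1.01, 0.265). The log2 fold change was 1.29 without NTC 1 and 0.81 without NTC 2.

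Serpinb6b (ENSMUSG00000042842, chromosome 13, 32965209 to 32979067, plus strand) encodes a mouse inhibitor of granzyme A. It stood at 506, 370 and 436 CPM in the Fli1 KO libraries, against 298 and 221 CPM in the NTC libraries, again without overlap. Means of 437 ± 67.9 CPM (SD, n = 3) in Fli1 KO and 260 ± 54.0 CPM (SD, n = 2) in NTC gave a 1.68-fold difference (log2 fold change 0.75, SE 0.16, edgeR adjusted p = 0.0291). The call was lost without Fli1 KO 1 (0.64, adjusted p = 0.386), Fli1 KO 3 (0.77, 0.299, with 0.191% of tested genes called higher) or NTC 2 (0.56, 0.281), and with scaling by library size alone (0.61, 0.0703).

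Serpinb6a (ENSMUSG00000060147, chromosome 13, 33917918 to 34002794, minus strand) encodes a broadly expressed relative that inhibits cathepsin G. It showed the closest replicates of the 4, with 51.9, 54.8 and 54.4 CPM in the Fli1 KO libraries, against 41.4 and 38.9 CPM in the NTC libraries. The 1.34-fold difference was not called (log2 fold change 0.42, 95% interval 0.13 to 0.71, edgeR adjusted p = 0.282), nor was it under any of the 14 alternatives. Exons of Nqo2, 1110046J04Rik and Ripk1 on the opposite strand cover 14.1%, 10.8% and 4.46% of its exon bases. The sources used here do not say whether counting used strand, so reads of these genes may be part of its count.

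**Figure D2:**
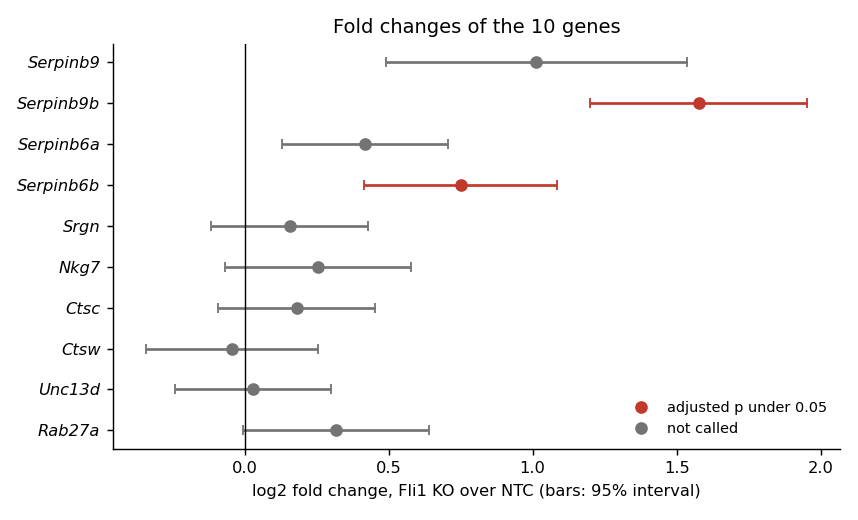
Log2 fold change of Fli1 KO over NTC (x axis) for the 10 genes (y axis), with 95% intervals from the edgeR fit as bars. The 2 called genes, Serpinb9b at 1.58 and Serpinb6b at 0.75, are in red, and intervals of 6 genes, Srgn to Rab27a, include 0.

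Sequence similarity between the serpins bears on how reads were assigned. The longest open reading frames of Serpinb9 and Serpinb9b were identical over 85.3% of aligned positions, with a longest shared run of 62 bases, and those of Serpinb6a and Serpinb6b over 81.2%, with a run of 57. In windows of 100 bases, 0 of 3392 windows of Serpinb9 transcripts and 0 of 2298 of Serpinb6b occurred in a transcript of any other gene. For Serpinb9b the share was 1.91%, all of it in Gm36099, an antisense neighbour with a mean of 4.07 CPM. In windows of 50 bases it was 0.378% for Serpinb9, 5.38% for Serpinb9b and 2.92% for Serpinb6b. The sources used here state neither the read length nor how multiply mapped reads were treated.

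Within a library, the balance between the 2 SERPINB9-like genes also differed. Serpinb9b made up 23.6%, 26.8% and 20.8% of the summed Serpinb9b and Serpinb9 counts in the Fli1 KO libraries, against 16.4% and 18.2% in the NTC libraries. The closest libraries of the 2 groups were Fli1 KO 3, with a Wilson 95% interval of 19.2 to 22.6% for counting error, and NTC 2, with 15.7 to 21.0%. These shares do not depend on the scaling of libraries. The Serpinb6b share of Serpinb6b and Serpinb6a counts, at 90.7%, 87.1% and 88.9% in Fli1 KO against 87.8% and 85.1% in NTC, overlapped between groups.

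Serpin RNA was then set against granzyme RNA within each library. Gzmm, which encodes the granzyme that the product of Serpinb9b inhibits, lay at 1.48 times background, so no ratio to it is given and Serpinb9b was set against Gzmb, the target of its paralogue. The ratio of Serpinb9b to Gzmb counts was 0.0456, 0.0538 and 0.0350 in the Fli1 KO libraries, against 0.0186 and 0.0291 in the NTC libraries. That of Serpinb9 to Gzmb was 0.148, 0.147 and 0.133 in Fli1 KO, against 0.0950 and 0.131 in NTC, where Fli1 KO 3 and NTC 2 lay close together. That of Serpinb6b to Gzma was 0.101, 0.116 and 0.110 in Fli1 KO, against 0.0880 and 0.106 in NTC, and overlapped. Relative to the perforin gene Prf1, Serpinb9 stood at 0.263, 0.232 and 0.246 in Fli1 KO, against 0.209 and 0.253 in NTC, and overlapped. Serpinb9b relative to Prf1 stood at 0.0813, 0.0847 and 0.0649 in Fli1 KO, against 0.0409 and 0.0562 in NTC, without overlap. With 3 against 2 libraries these ratios are given as a description without a test.

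**Figure D3:**
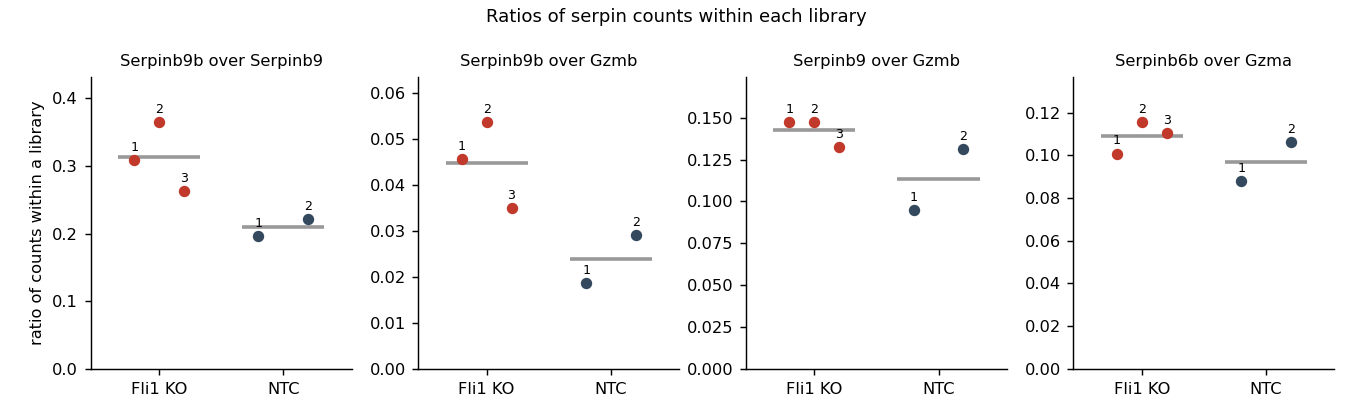
Ratios of counts within a library (y axes, from 0) for 4 pairs of genes in the 3 Fli1 KO and 2 NTC libraries, with group means as grey lines and replicate numbers beside the points. The ratios over Serpinb9 and over Gzmb are higher in every Fli1 KO library than in both NTC libraries, and that of Serpinb6b to Gzma overlaps.

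Position in the serpin cluster was compared with the differences. Starts of Serpinb6b, Serpinb9 and Serpinb9b follow each other on the plus strand within 62.2 kb. The cluster and 200 kb to either side held 15 coding Serpinb genes, of which 14 were tested and 4, those described above, exceeded 3 times background. The other 10 tested serpins of the cluster lay at 0.564 to 2.26 times background and 0 were called. These included Serpinb1b, the next coding gene after Serpinb9b, at 2.26 times background (log2 fold change 0.27, edgeR adjusted p = 0.844). The 5 other coding genes of the region over 3 times background, among them the kinase gene Ripk1 and the quinone reductase gene Nqo2, had log2 fold changes of 0.04 to 0.24. In each of these 5 the groups overlapped.

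**Figure D4:**
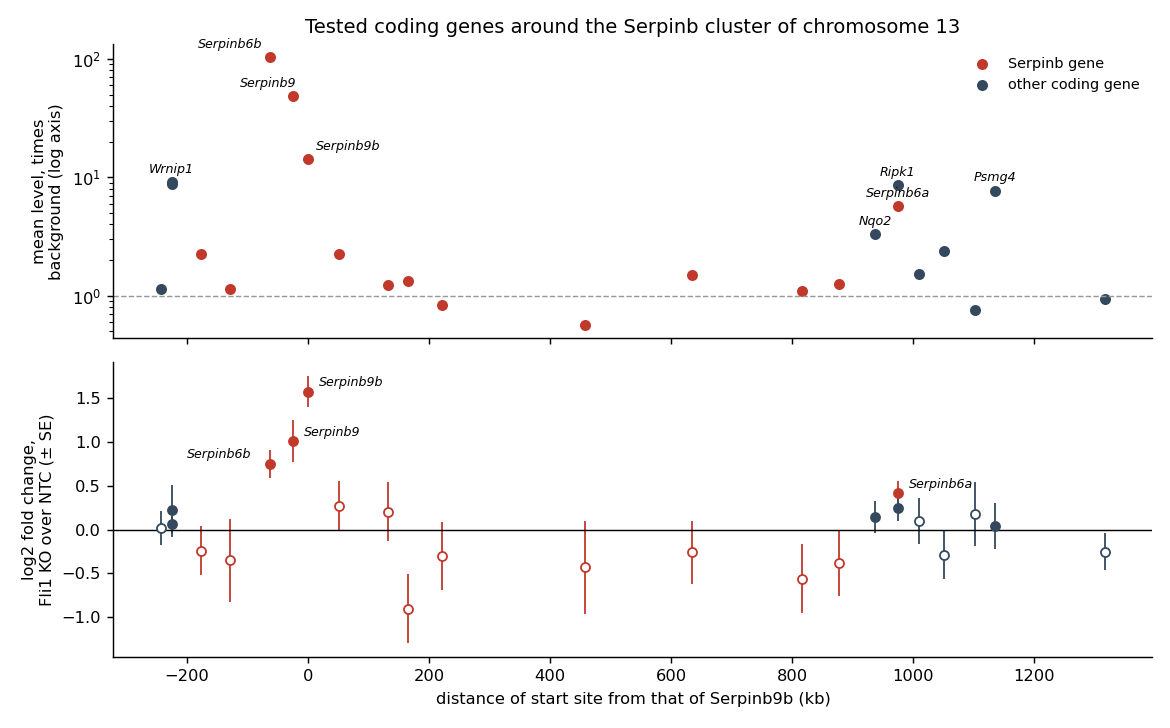
Tested coding genes around the Serpinb cluster, by distance of their start from that of Serpinb9b (x axis, kb). The upper panel gives the mean level over 5 libraries as a multiple of background (log axis, dashed line at 1), and the lower panel the log2 fold change of Fli1 KO over NTC ± SE, with open circles for genes at up to 3 times background. Serpinb6b, Serpinb9 and Serpinb9b stand above their neighbours in both panels.

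The granule constituents differed less. Srgn (ENSMUSG00000020077, chromosome 10, 62493833 to 62527451) encodes serglycin, the proteoglycan on which granzymes and perforin are packed. It had 201, 179 and 181 CPM in the Fli1 KO libraries, against 165 and 171 CPM in the NTC libraries. The groups were separate by a narrow margin of 1.05-fold, and the log2 fold change of 0.16 (95% interval −0.12 to 0.43) was not called (edgeR adjusted p = 0.788). Nkg7 (ENSMUSG00000004612, chromosome 7, 43437073 to 43438249) encodes a granule membrane protein needed for degranulation. Its level was 165, 137 and 165 CPM in the Fli1 KO libraries, against 155 and 106 CPM in the NTC libraries. NTC 1 lay within the range of the Fli1 KO libraries and NTC 2 below it (log2 fold change 0.25, 95% interval −0.07 to 0.58, edgeR adjusted p = 0.674).

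Neither protease gene was called. Ctsc (ENSMUSG00000030560, chromosome 7, 88278085 to 88310888) encodes dipeptidyl peptidase I, which removes the propeptide of granzymes. It had 119, 110 and 112 CPM in the Fli1 KO libraries, against 105 and 95.7 CPM in the NTC libraries. These groups did not overlap, at a log2 fold change of 0.18 (95% interval −0.09 to 0.45, edgeR adjusted p = 0.742). Ctsw (ENSMUSG00000024910, chromosome 19, 5465043 to 5468507) encodes cathepsin W, a protease found mainly in NK cells and cytotoxic T cells. It stood at 168, 175 and 183 CPM in the Fli1 KO libraries, against 209 and 153 CPM in the NTC libraries. The 2 NTC values lay on either side of all Fli1 KO values, and the log2 fold change of −0.04 (95% interval −0.34 to 0.26) was the only negative one of the 10 (edgeR adjusted p = 0.963).

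Of the release genes, Unc13d (ENSMUSG00000057948, chromosome 11, 116062095 to 116077961) encodes the priming factor that readies docked granules for fusion. Loss of this gene in humans causes familial hemophagocytic lymphohistiocytosis. It had 117, 117 and 124 CPM in the Fli1 KO libraries, against 123 and 111 CPM in the NTC libraries. Its log2 fold change of 0.03 was bounded by a 95% interval of −0.24 to 0.30 (edgeR adjusted p = 0.977). Rab27a (ENSMUSG00000032202, chromosome 9, 73044854 to 73097629) encodes the GTPase that tethers granules at the membrane and is mutated in human Griscelli syndrome. It stood at 164, 134 and 156 CPM in the Fli1 KO libraries, against 144 and 98.6 CPM in the NTC libraries, with NTC 1 inside the Fli1 KO range. Its log2 fold change was 0.32 (95% interval −0.01 to 0.64, edgeR adjusted p = 0.571).

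Over the 10 genes, 9 log2 fold changes were positive, or 8 with scaling by library size alone, where Unc13d was at −0.10. Their median was 0.29. The median was −0.02 over all tested genes and 0.11 over the 7603 tested genes that exceeded 3 times background, as all 10 did. In 6 of the 10, namely the 4 serpins, Srgn and Ctsc, every Fli1 KO library lay above both NTC libraries, and in 0 the reverse held. Such separation was found in 11.9% of all tested genes upward, 13.7% downward and 25.6% either way, and upward in 26.3% of tested genes over 3 times background. At an unadjusted p under 0.05 the 4 serpins remained and none of the 6 others, against 8.94% of all tested genes and 18.3% of those over 3 times background. Of tested genes over 3 times background, 1.71% were called higher. Scaling by library size alone lowered the median of all genes by 0.13 and that of the 10 genes to 0.15, and it left Serpinb9b as the only call, with 0.301% of all tested genes called higher.

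Most members had a similar order of libraries. How many of all tested genes have the same order was not counted, so it may not be particular to these 10. NTC 2 had the lowest level of the 5 libraries in 9 of the 10 genes, Srgn being the exception. NTC 1 exceeded NTC 2 by 1.46-fold for Nkg7 and for Rab27a, and by 1.38-fold for Serpinb9. Among the Fli1 KO libraries, Fli1 KO 2 was lowest for 8 of the 10 genes. Without NTC 1, when the lone NTC library was assumed to vary like the Fli1 KO libraries, 5 of the 10 genes were called higher: Serpinb9, Serpinb9b, Serpinb6b, Nkg7 (log2 fold change 0.58, edgeR adjusted p = 0.0397) and Rab27a (0.64, 0.0164). In that fit 2.14% of tested genes were called higher. Without NTC 2, Serpinb9b was the only call, against 0.336% of tested genes called higher, and Nkg7 and Rab27a stood at 0.01 and 0.08.

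**Figure D5:**
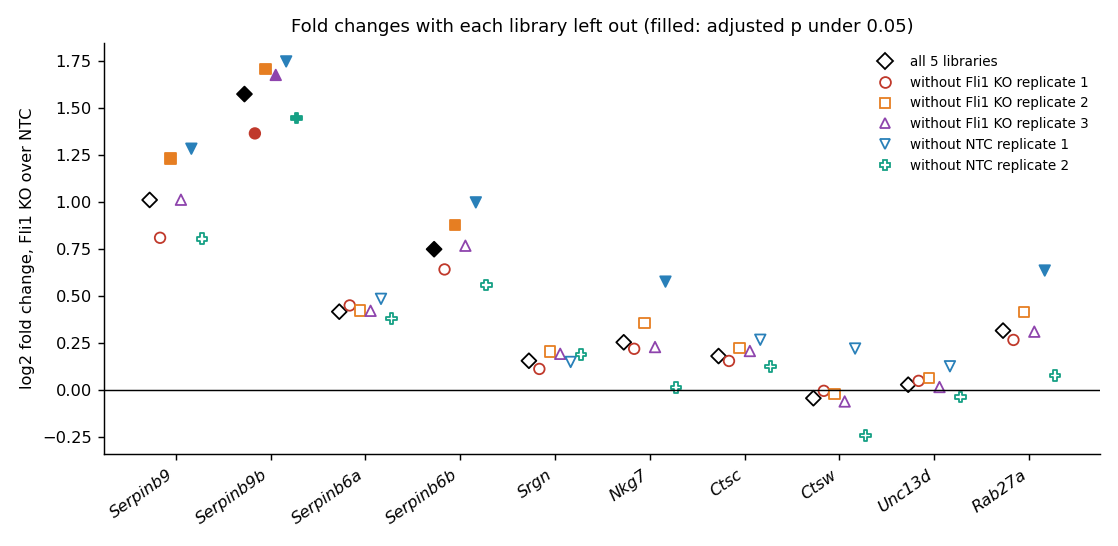
Log2 fold change of Fli1 KO over NTC (y axis) for each gene (x axis) with all 5 libraries and with each library left out, where filled symbols mark an adjusted p under 0.05. Serpinb9b stays between 1.37 and 1.75 and is filled throughout, whereas Nkg7 and Rab27a are filled only without NTC 1.

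Levels were compared between genes per kb of exon. The libraries were enriched by capture, and how well each gene was captured is not known here. The order below is therefore one of counts per kb and may differ from that of RNA amounts. Averaged over the 5 libraries, Serpinb6b (162 CPM per kb) and Nkg7 (159 CPM per kb) were highest, but their order depended on the group. Serpinb6b lay above Nkg7 in all 3 Fli1 KO libraries and below it in both NTC libraries. Ctsw (94.1 CPM per kb) was below Nkg7 in all 5 libraries, and its range overlapped with that of Srgn (81.7), which in turn overlapped with that of Serpinb9 (76.6). Rab27a (35.9 CPM per kb) lay below Serpinb9 in all 5 libraries. The range of Serpinb9b (22.5) overlapped with those of Unc13d (25.3) and Ctsc (18.6), which were separate from each other, while Serpinb6a (8.92 CPM per kb) was below Ctsc in each library. The place of Serpinb9b also depended on the group, at 39.4, 25.7 and 27.0 CPM per kb in the Fli1 KO libraries, against 11.3 and 9.23 CPM per kb in the NTC libraries. Per kb, the 10 genes stood between the 82.8th and the 96.8th percentile of tested genes.

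By profile over the 5 libraries, measured as the root mean square distance of centred log2 CPM among 17302 tested genes with at least 5 CPM, the genes nearest to Serpinb9b were Eif1, a translation initiation factor (0.13), Gem, a small GTPase (0.14), and Eif4ebp1, a repressor of translation (0.15). Those nearest to Serpinb6b were Map2k1, the kinase MEK1 (0.026), Atf4, a transcription factor of the integrated stress response (0.045), and Adam8, a membrane protease (0.055). All 6 were called higher, with log2 fold changes of 0.76 to 1.52. They were picked for likeness to called genes, and the distances rest on 5 shared libraries.

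A wider list of 98 serpin and granule genes gave 1 call among 96 tested, higher, and 0 lower (17 at an unadjusted p under 0.05, of which 12 were higher), with a median log2 fold change of 0.11. An unadjusted p under 0.05 was found for 8.94% of all tested genes and 18.3% of those over 3 times background. Calls of higher level made up 0.458% and 1.71% of these. The called gene was Vamp3, a vesicle SNARE of recycling endosomes, which had 63.6, 46.2 and 51.8 CPM in the Fli1 KO libraries, against 32.4 and 34.1 CPM in the NTC libraries (log2 fold change 0.69, SE 0.16, edgeR adjusted p = 0.0412). It was not called by DESeq2 (adjusted p = 0.0541) or limma-voom (0.0768), and not without Fli1 KO 1 (0.389), Fli1 KO 3 (0.266) or NTC 2 (0.0688). Of 17 SNARE fusion genes 14 were positive, but with scaling by library size alone 8 were. For comparison, 5363 of the 7603 tested genes over 3 times background were positive. Napa, which recycles SNAREs after fusion, was next in p at 0.47 (edgeR adjusted p = 0.247). Stxbp2, the syntaxin-binding partner in granule fusion, was the highest per kb of these 17 genes. It stood at 116 ± 12.7 CPM in Fli1 KO (SD, n = 3) and 117 ± 2.91 CPM in NTC (SD, n = 2).

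Granule cargo genes were positive in 11 of 11 cases (9 of 11 with scaling by library size alone), with a median log2 fold change of 0.59, 5 at an unadjusted p under 0.05 and 0 calls. Fasl, the death ligand stored with granule cargo, came closest, at 114 ± 11.1 CPM in Fli1 KO (SD, n = 3) and 75.8 ± 3.56 CPM in NTC (SD, n = 2; log2 fold change 0.59, edgeR adjusted p = 0.0534). Prf1, the perforin gene, followed at 1345 ± 306 CPM in Fli1 KO and 737 ± 264 CPM in NTC (0.87, adjusted p = 0.192). Gzmf, a granzyme gene singled out after its values were seen, was next in p and had the highest fold of the cargo list, but lay below 3 times background (4.60 CPM in Fli1 KO, 2.10 CPM in NTC, log2 fold change 1.13, edgeR adjusted p = 0.243). Gzma, the most abundant per kb, stood at 4052 ± 915 CPM in Fli1 KO and 2736 ± 916 CPM in NTC (0.57, adjusted p = 0.392). Without NTC 1 the log2 fold changes of Prf1 and Fasl were 1.31 and 0.66, and without NTC 2 both were 0.55. DESeq2 called Fasl alone of the listed genes.

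The remaining sublists had 0 calls by edgeR, DESeq2 or limma-voom with all 5 libraries and group as the only term. With the replicate number as a block, which leaves Fli1 KO 3 no weight, edgeR called 921 of 30580 tested genes. Of these, 728 were higher and 193 lower, and they included Lamp1, M6pr, Unc13a and Wipf1. The log2 fold change of Wipf1 was 0.68 without NTC 1 and 0.30 without NTC 2. Among 14 RAB27 effectors and priming genes (1 at an unadjusted p under 0.05), Unc13a, a paralogue of Unc13d known from synapses, had the smallest p, with 43.0, 45.7 and 48.8 CPM in Fli1 KO against 32.1 and 30.7 CPM in NTC, at 2.02 times background (log2 fold change 0.54, edgeR adjusted p = 0.121). Exph5, a RAB27 effector near background, was next (−0.31, 0.668), and Sytl2, the effector highest per kb, had 0.17 (0.775). Among 23 genes of granule biogenesis and transport (6 at an unadjusted p under 0.05), Wipf1, a partner of the actin regulator WASP, had 0.46 (0.235) and Lamp1, a granule membrane protein, −0.42 (0.281), while Coro1a, an actin regulator and the highest per kb, had 0.26 (0.698). Among 11 cystatins and lysosomal proteases (2 at an unadjusted p under 0.05, both lower), Ctsh and Ctss had −0.67 and −0.36 (0.340 and 0.550), and Ctsd, the most abundant, 0.14 (0.869). Ctsh lay at 0.940 times background. Of the 20 tested further serpins (1 at an unadjusted p under 0.05), only Serpina3f and Serpina3g, which lie outside the cluster, exceeded 3 times background. Serpina3g, an inhibitor of cathepsins, had 83.8 ± 1.14 CPM in Fli1 KO (SD, n = 3) and 77.4 ± 10.9 CPM in NTC (SD, n = 2; log2 fold change 0.11, edgeR adjusted p = 0.874). The smallest p among these serpins belonged to Serpinb9d and Serpinb11, at −0.90 and −0.54 (edgeR adjusted p = 0.495 and 0.652) and near background.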

How the data were processed

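RNA of 5 libraries was measured. Per the labels' protocols, libraries were made from 10 ng of RNA with a kit that enriches by capture. Per the submitters' processing notes, the tools were FastQC 0.12.0, Trimmomatic 0.39 and STAR 2.7.11, with mm10. The counter, strand setting and annotation release are not stated in the sources used here. The authors deposited raw counts, whole and without normalization, for Ensembl gene IDs.

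Symbols came from a gene name table (52073 of 56691 IDs matched), and exon lengths and coordinates from GENCODE M21 on GRCm38, the same assembly as mm10. Genes were kept with filterByExpr at a minimum count of 10, scaled with TMM and compared with the robust quasi-likelihood test of edgeR 4.0.16 (R 4.3.3), adjusted over all 30580 genes with Benjamini-Hochberg. The fit was tested on simulated data. Alternatives were other scalings and filters, DESeq2 1.42.0, limma-voom (limma 3.58.1), the replicate number as a block and each library left out. Background on receptor genes was 7.54, 9.48 and 7.32 counts per kb of exon in the Fli1 KO libraries and 8.00 and 8.52 in NTC. It was scaled to each gene's length. Fli1 KO 2 and NTC 2 had the highest values, and any bearing on the levels of the genes was not tested. Members and lists were chosen with earlier results of these data known. All members are named, with, per sublist, called genes, the 2 smallest p and the highest level per kb, and the 3 nearest profiles of each called member. Vamp7 was not analysed here. Intervals cover counting error only where they are Wilson intervals.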

Additional observations from a re-analysis of the deposited data

How the results depend on the processing

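Serpinb9b kept its call and direction under all 14 alternatives, and Serpinb6b under 10 of them. Calls among all genes numbered 167, and 295 with no filter. With each library left out they ranged from 49 to 877, those among the 10 genes from 1 to 5 (2 with all libraries) and those among the wider list from 0 to 10 (1 with all libraries). Library size alone left 1 call among the 10 genes and 0 in the wider list, and split all calls into 92 higher and 71 lower, against 140 and 27 with TMM. The wider list also gave 2 calls with upper-quartile factors, with no filter and with at least 5 CPM in 2 libraries, and 0 with limma-voom. Small values changed sign: Unc13d was −0.10 with library size alone, −0.087 among genes over 3 times background and −0.037 without NTC 2 (0.13 without NTC 1), and Ctsw was 0.22 without NTC 1 (−0.24 without NTC 2). The cause was not tested. Nothing but replicate numbers could pair the libraries: deviations from the group means correlated at 0.29 between Fli1 KO 1 and NTC 1, at 0.43 between Fli1 KO 2 and NTC 2 and at 0.20 between Fli1 KO 3 and NTC 1, which share no number, over 7603 genes. With 2 NTC libraries the values with the other NTC library are the same with the opposite sign. With the replicate number as a block, which leaves Fli1 KO 3 no weight, 921 of 30580 tested genes were called. Of these, 728 were higher and 193 lower. They included 13 of the wider list (12 higher, 1 lower) and 3 of the 10 genes, Serpinb9 being added (log2 fold change 0.96). Fits with 1 NTC library take its spread from the Fli1 KO libraries.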
